A study of Mus musculus with 6 samples.

Results

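Replication-dependent histone genes were examined in small RNA libraries of regulatory T (Treg) cells, taken here as thymic from the labels and methods, although the study's results text calls the cells peripheral. The members are the protein-coding genes of GENCODE vM21 whose symbols begin with Hist1h, Hist2h, Hist3h or Hist4h, and 67 of the 54547 genes in the deposited tables met this rule. They encode the linker histone H1 (6 genes) and the core histones H2A (18 genes), H2B (18 genes), H3 (12 genes) and H4 (13 genes). Small RNA had been sequenced from 3 WT and 3 miR-181a/b-1-/- samples of Treg cells, each sorted from the pooled thymi of 3 mice aged 7 weeks and labelled with the strain background C5BL6/N. The miR-181a/b-1-/- mice lack the Mir181a-1 and Mir181b-1 genes in every cell from the germ line on, so that thymocytes and all other tissues are deleted as well. The values are counts of sequenced fragments per gene. They totalled between 168293 and 307840 on all genes of a library, and small nucleolar RNAs took 41.9% to 45.8% of them.

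DNA in a dividing cell is packed by new histones as it is copied, and most of that protein is made from replication-dependent genes that lie in clusters and are transcribed mainly in S phase. Their messenger RNAs usually carry no poly(A) tail. They end instead just behind a short stem-loop, which is bound by the stem-loop-binding protein Slbp and is needed for processing, translation and rapid decay at the end of S phase. H2A, H2B, H3 and H4 form the nucleosome core around which DNA is wound, whereas H1 binds the linker DNA between nucleosomes. The comparison of genotypes addressed here is whether fragments of these messengers differed between WT and miR-181a/b-1-/- Treg cells, as a readout of cells in S phase.

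The stem-loop sequence is shown for the most counted gene of each type and for 2 more H4 genes because it is the feature by which this family differs from other messengers. It was searched in the annotated transcripts, on the transcript strand, as the 16-base pattern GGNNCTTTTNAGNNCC with the condition that the first 6 bases pair with the last 6. Capitals mark the stem-loop, and 5 bases are printed on either side.
Hist1h1c: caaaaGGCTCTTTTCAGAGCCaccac
Hist1h2bg: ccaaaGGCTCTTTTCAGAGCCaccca
Hist2h2ac: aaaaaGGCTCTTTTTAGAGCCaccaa
Hist1h3e: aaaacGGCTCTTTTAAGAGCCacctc
Hist1h4d: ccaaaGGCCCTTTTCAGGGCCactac
Hist1h4h: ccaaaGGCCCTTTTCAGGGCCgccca
Hist1h4c: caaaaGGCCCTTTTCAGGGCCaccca

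In GRCm38 the capitals of Hist1h1c are at chr13:23739512-23739527 on the plus strand, those of Hist2h2ac at chr3:96220418-96220433 on the minus strand, and those of Hist1h4d at chr13:23581950-23581965 on the plus strand. All lie in the 3′ UTR, and over the members that hold the pattern it began 22 to 59 bases behind the stop codon, with a median of 32. The pattern was present in 44 of the 67 members (65.7%) and in 49 of 21951 protein-coding genes (0.223%). The 5 genes that are not members were H2afx, H2bfm, Nova2, Syncrip and Trim17. H2afx encodes the variant histone H2A.X, and Trim17 shares exon bases with the member Hist3h2a. Of the 23 members without the pattern, 15 have annotated transcripts that end less than 37 bases behind the stop codon and so leave no room for it at the nearest position at which it was found. No match says only that these letters are not in the annotated transcript.

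The stem separated H4 from the other types. In 11 of the 13 H4 genes the pattern was found, and its stem was GGCCCT in 9 of them and GGTCCT in the other 2 (Hist1h4b and Hist1h4j). All 33 members of the other types with a match had the stem GGCTCT, whether they encoded H1, H2A, H2B or H3. The loop letter before AG was C in most genes, A in 6 (3 H3, 2 H2B and 1 H1 gene) and T in Hist2h2ac and 2 H4 genes. Genes with the stem-loop took 86.0% of the histone counts. Where along a messenger the fragments lay is not recorded in counts per gene.

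A total of 1806 fragments were counted on the members over the 6 libraries, 984 in WT and 822 in miR-181a/b-1-/- samples. The 13 H4 genes took 646 of them (35.8%) and the 6 H1 genes 422 (23.4%). H2B followed with 341 (18.9%), H3 with 201 (11.1%) and H2A with 196 (10.9%). Per kilobase of exon, the level summed over libraries was 59.3 counts for H4 and 31.7 for H1, against 20.5 for H3, 17.0 for H2B and 16.0 for H2A. The 4 core histones are built into the nucleosome in equal numbers, and their counts per kilobase were not equal. Annotated exons can run far past the stem-loop, as in Hist1h1d, where it begins after 2525 of 7425 transcript bases. The values per kilobase thus depend on annotated length, and the part of this in the order of types was not tested.

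**Figure D1:**
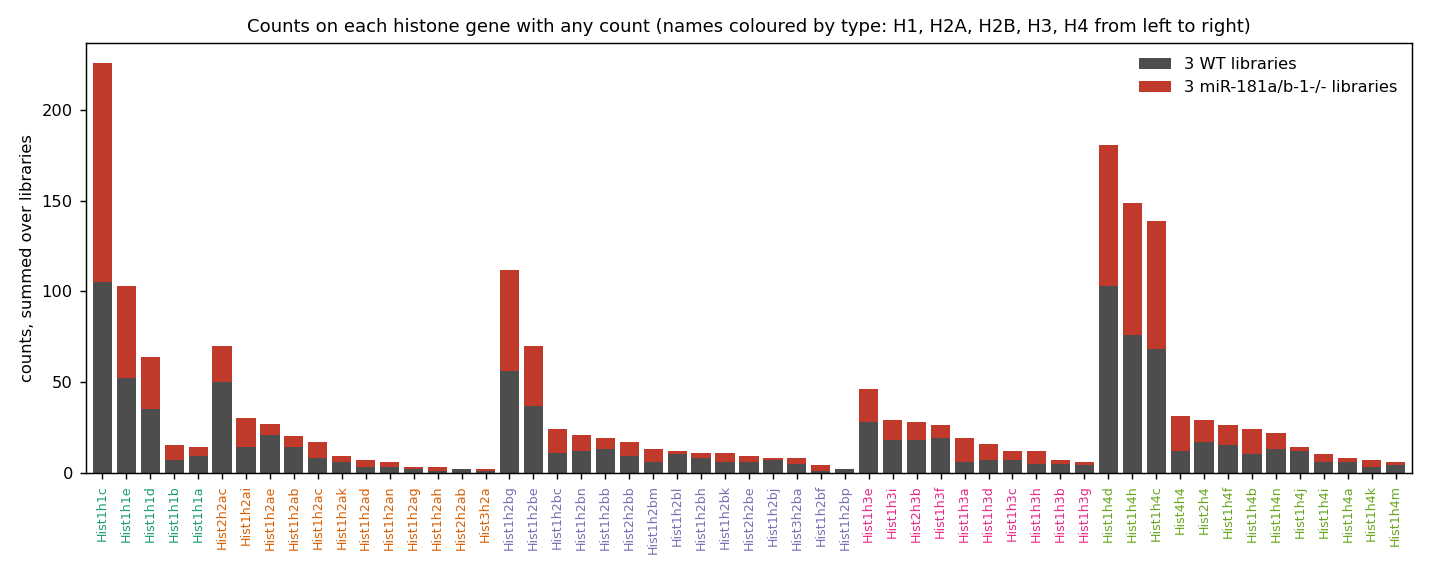
Counts on each of the 55 histone genes that had any, with the 3 WT libraries in grey and the 3 miR-181a/b-1-/- libraries stacked in red on a linear axis, ordered by type and by count. A few genes of each type carry most of its counts, led by Hist1h1c (226) among H1 genes and Hist1h4d (181), Hist1h4h (149) and Hist1h4c (139) among H4 genes.

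Counts were concentrated in few genes. The 6 most counted genes, Hist1h1c, Hist1h4d, Hist1h4h, Hist1h4c, Hist1h2bg and Hist1h1e, took 50.4% of all histone counts, and the median member had 12. A count was present in every library for 28 members, 17 had between 1 and 9 counts in all, and 12 had none. Among the 12 were the 3 testis-specific genes Hist1h1t, Hist1h2aa and Hist1h2ba, which encode germ-cell forms of H1, H2A and H2B. A count of 0 in a library allows a level of up to 0.975 to 1.78 counts per 100000 (3 counts, counting error only).

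Histone genes of a type resemble each other so closely that a short fragment often cannot be given to a single gene, and records that did not align uniquely were 41.7% to 46.2% of a library. The share of 30-base windows of a member's transcripts that occur in no other gene (either strand, genes at the same locus aside) was 94.7% for H1, 70.2% for H4, 56.9% for H2B, 52.0% for H2A and 43.2% for H3. Hist1h1t, at 0 counts, had 100% unique windows and Hist1h2aa had 87.8%. Hist2h2aa2, at the other end, had 0% and Hist2h2aa1 had 3.59%, so a value of 0 for this pair of near-identical H2A genes says little of their expression. The same limit holds for other members at 0 counts, such as Hist1h2bq (1.69%), Hist1h2ao (6.21%) and Hist1h2ap (6.62%), and less so for Hist2h3c1 (64.5%). Per 1000 unique windows the counts were 88.9 for H4, 49.1 for H3, 33.9 for H1, 32.1 for H2A and 30.7 for H2B. H4 led under either scale, and the order of the other types depended on it. Both scales take in annotated bases behind the stem-loop.

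**Figure D2:**
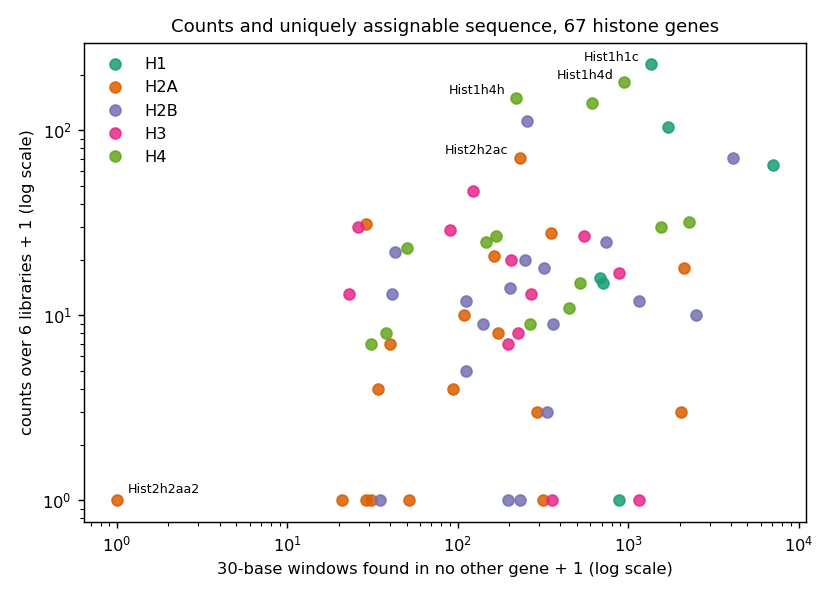
Counts over the 6 libraries plus 1 against the number of 30-base windows found in no other gene plus 1, both on log scales, for all 67 histone genes coloured by type. Hist1h4h reached 149 counts with 219 unique windows and Hist1h1c 226 counts with 1353, and Hist2h2aa2 had neither counts nor unique windows.

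The first 30 coding bases of H4 genes show both the likeness and the differences that let fragments be told apart. All 13 H4 genes have 309 coding bases without the stop codon, and the 78 pairs among them are identical at a median of 93.9% of positions. Bases in capitals differ from Hist1h4d, the most counted H4 gene.
Hist1h4d: atgtctggacgcgggaaaggcggcaagggt
Hist1h4h: atgtctggTcgTggCaaGggcggTaaAggt
Hist1h4c: atgtctggacgTggTaaGggTggTaaAggC
Hist1h4n: atgtctggTcgTggCaaaggAggAaaAggC
Hist1h4i: atgtctggTcgTggCaaaggAggAaaAggC

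The window of Hist1h4d is at chr13:23581602-23581631 on the plus strand, that of Hist1h4h at chr13:23531115-23531144 on the plus strand and that of Hist1h4c at chr13:23698420-23698449 on the minus strand. Hist1h4h differs from Hist1h4d at 6 of the 30 bases and Hist1h4c at 7. Hist1h4n and Hist1h4i, chosen for print after their values were seen, have the same 30 bases, and a fragment lying wholly within that window could be given to neither. They had 22 and 10 counts in all.

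Pooled over all members, the histone counts did not separate the genotypes when scaled to all gene counts. WT replicates 1, 2 and 3 held 143.2, 140.7 and 143.7 histone counts per 100000 gene counts, and the miR-181a/b-1-/- replicates held 153.3, 137.9 and 95.8. The means were 142.5 ± 1.59 for WT and 129.0 ± 29.8 for the deficient samples (SD, n = 3), a log2 ratio of -0.14, and the groups overlapped. No p-value is given for sums over the members. The low mean rested on miR-181a/b-1-/- replicate 3, whose 95% Wilson interval (85.5 to 107) was below those of the other 5 libraries. Without it, the miR-181a/b-1-/- mean was 145.6 and the log2 ratio 0.03. Without miR-181a/b-1-/- replicate 1 instead, the log2 ratio was -0.29.

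**Figure D3:**
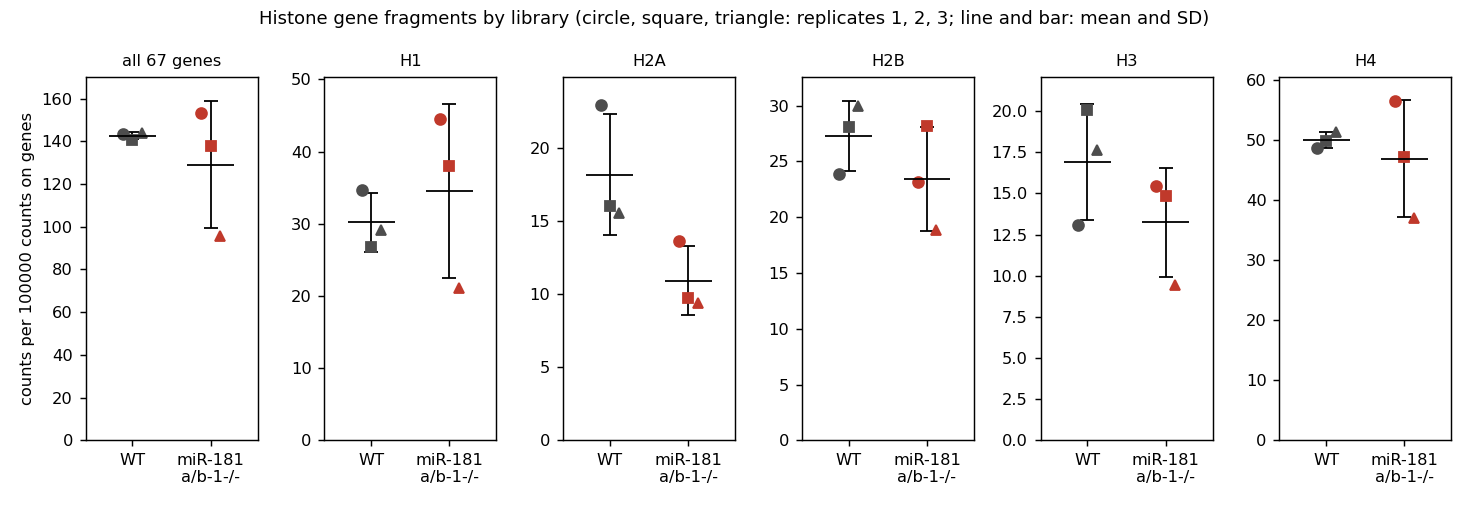
Histone counts per 100000 gene counts in each library for all 67 genes and for each type, with points for replicates 1 (circle), 2 (square) and 3 (triangle), a line at the mean and a bar for the SD (n = 3), on axes that start at 0. The third miR-181a/b-1-/- library is the lowest in all 6 panels, and the groups are apart only for H2A.

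The library with the lowest histone level was also the one with the most gene counts (307840) and the smallest share of them on nuclear protein-coding genes, at 20.6% against 23.2% to 26.2% in the other 5. Scaled to counts on nuclear protein-coding genes, the WT libraries had 603.2, 605.4 and 620.1 histone counts per 100000 and the miR-181a/b-1-/- libraries 585.8, 577.1 and 464.9. All 3 miR-181a/b-1-/- libraries were then below all WT libraries, at a mean of 542.6 ± 67.4 against 609.5 ± 9.21 (SD, n = 3), a log2 ratio of -0.17. Here too the third miR-181a/b-1-/- library carried much of the difference, and the ratio was -0.07 when it was left out. Whether the groups overlapped thus depended on the denominator, while the ratio of the means moved little. Were the difference real, fewer cells in S phase and less histone RNA per cell could not be told apart in such bulk samples, and no cause was tested.

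H1, H4, H2B and H3 did not separate the genotypes. The H1 level was 30.2 ± 4.08 per 100000 gene counts in WT and 34.5 ± 12.1 in miR-181a/b-1-/- samples (SD, n = 3), a log2 ratio of 0.19. Leaving out the first miR-181a/b-1-/- library turned this ratio to -0.03, and leaving out the third raised it to 0.45. H4 was at 49.9 ± 1.33 and 46.9 ± 9.71, a log2 ratio of -0.09, which became -0.25 and 0.05 when the same libraries were left out. H2B was at 27.3 ± 3.12 and 23.4 ± 4.68 (log2 ratio -0.22) and H3 at 16.9 ± 3.55 and 13.2 ± 3.33 (log2 ratio -0.35). Without miR-181a/b-1-/- replicate 3 these were -0.09 and -0.16, and without WT replicate 2 that of H3 was -0.21. Without replicate 2 of miR-181a/b-1-/- that of H2B was -0.38. In each of these 4 types the libraries of the genotypes overlapped under both denominators.

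H2A was the type in which the groups did not overlap. WT replicates 1, 2 and 3 had 23.0, 16.0 and 15.6 H2A counts per 100000 gene counts, and the miR-181a/b-1-/- replicates had 13.7, 9.74 and 9.42. Every miR-181a/b-1-/- library was below every WT library, at means of 10.9 ± 2.36 and 18.2 ± 4.14 (SD, n = 3) and a log2 ratio of -0.73. The groups were apart too with counts on nuclear protein-coding genes as the denominator (log2 ratio -0.75). The difference rests on 125 counts in WT and 71 in miR-181a/b-1-/- samples, of which 50 and 20 fell on Hist2h2ac alone. Without Hist2h2ac the remaining 17 H2A genes were at 10.8 ± 2.07 and 7.93 ± 1.92, a log2 ratio of -0.45, and the groups overlapped.

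Hist2h2ac is an H2A gene of the small cluster on chromosome 3 (chr3:96220361-96220880 of GRCm38, minus strand). Its counts were 24, 17 and 9 in WT and 6, 5 and 9 in miR-181a/b-1-/- samples. Per 100000 gene counts the WT values, 10.8, 7.57 and 3.69, were all above the miR-181a/b-1-/- values, 3.57, 2.56 and 2.92, with the nearest pair almost equal, and the WT replicates were further apart from each other than the genotype means, 7.36 and 3.02. It passed the filter of the test only in its looser form (5 counts in 2 libraries), where edgeR gave a log2 fold change of -1.23 ± 0.42 (SE), an unadjusted p of 0.00402 and an adjusted p of 0.564 over the 3704 genes tested. At an unadjusted p under 0.05 that fit gave 2 lower members, Hist2h2ac and Hist1h2ae, and 0 higher ones, against 2.35% and 2.7% of all its genes, and it called 0 members after adjustment, against 0.108% of genes. Hist1h2ae had entered the fit through its WT counts alone, so its p is no support for a lower level. Without WT replicate 1, the library with 24 counts, the log2 fold change was -0.87 and the unadjusted edgeR p 0.0723. The sequence is not unique to the gene over its whole length, since 46.6% of its 30-base windows occur in no other gene, and 141 of its 520 exon bases are overlapped on the other strand by the predicted gene Gm44492, which had 0 counts.

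No histone gene was called in the test across genes. The fit took the 1391 genes that reached 10 counts in 3 or more libraries, and 8 members were among them. These were the H1 genes Hist1h1c, Hist1h1d and Hist1h1e, the H2B genes Hist1h2be and Hist1h2bg, and the H4 genes Hist1h4c, Hist1h4d and Hist1h4h. In edgeR's quasi-likelihood test, adjusted by Benjamini-Hochberg over all genes, 0 of the 8 passed an adjusted p of 0.05, and 0 of all 1391 genes did (0%). At an unadjusted p under 0.05 the members again gave 0 calls, against 3.02% of all genes lower and 2.44% higher in miR-181a/b-1-/- samples. DESeq2 called 0 members and 0 genes. Of the 8 log2 fold changes, 3 were negative and 5 positive with a median of 0.03, beside a median of -0.02 over all genes tested. This balance hung on single libraries, with 5 negative and 3 positive (median -0.10) when the first miR-181a/b-1-/- library was left out and 1 and 7 (median 0.22) when the third was. Leaving out the second library of either genotype gave 4 and 4, with medians of -0.03 (WT) and -0.08 (miR-181a/b-1-/-). The looser filter gave 12 negative and 10 positive members (median -0.11, beside 0.0034 over all its genes), and no filter gave 34 and 21 (median -0.36, beside 0.05).

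**Figure D4:**
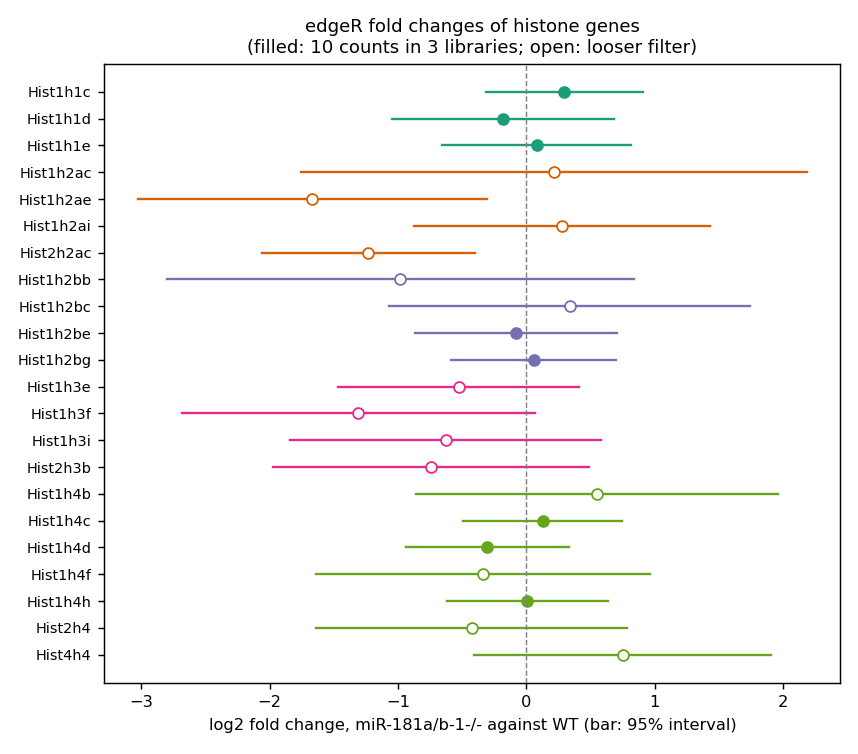
The edgeR log2 fold change of miR-181a/b-1-/- against WT samples for 22 histone genes coloured by type, with 95% intervals, for the 8 genes with 10 counts in 3 libraries (filled) and for 14 more that passed only the looser filter of 5 counts in 2 libraries (open). The filled points lie between -0.31 and 0.30 with intervals that span 0, and the intervals of Hist2h2ac and Hist1h2ae alone lie below 0 before adjustment for multiple testing.

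Hist1h1c, a linker histone gene (chr13:23738808-23740367, plus strand), was the most counted member. Its counts were 42, 29 and 34 in WT and 44, 36 and 41 in miR-181a/b-1-/- samples. The levels per 100000 gene counts, 15.3 ± 3.21 and 19.3 ± 6.46 (SD, n = 3), overlapped, and the log2 fold change was 0.30 ± 0.30 (SE) with a 95% interval of -0.32 to 0.91. The linker histone gene Hist1h1e had 17, 15 and 20 counts in WT and 19, 21 and 11 in miR-181a/b-1-/- samples, and Hist1h1d had 14, 9 and 12 against 10, 13 and 6. Their log2 fold changes were 0.08 ± 0.36 and -0.18 ± 0.42 (SE).

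The 3 most counted H4 genes encode the same core histone from different places in the large cluster on chromosome 13. Hist1h4d (chr13:23581598-23582735, plus strand) had 33, 36 and 34 counts in WT and 26, 29 and 23 in miR-181a/b-1-/- samples. Although each of the latter counts was lower, the levels per 100000 gene counts overlapped at 15.0 ± 1.04 and 12.6 ± 4.45 (SD, n = 3), and the log2 fold change was -0.31 ± 0.31 (SE, 95% interval -0.94 to 0.33). Hist1h4h had 29, 20 and 27 counts against 24, 19 and 30, and Hist1h4c had 20, 23 and 25 against 21, 22 and 28. Their log2 fold changes were 0.01 ± 0.31 and 0.13 ± 0.30 (SE), so that the interval of none of the 3 genes left out 0.

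Among H2B genes, Hist1h2bg had 21, 18 and 17 counts in WT and 15, 18 and 23 in miR-181a/b-1-/- samples, a log2 fold change of 0.06 ± 0.31 (SE). Hist1h2be had 10, 10 and 17 against 12, 12 and 9, a log2 fold change of -0.08 ± 0.38 (SE). The annotated exons of Hist1h2be share 496 bases with those of Hist1h1e on the same strand, and fragments from there are ambiguous between them. Over the 8 genes the adjusted p was between 0.986 and 0.999, and each 95% interval spanned 0, with the lowest end at -1.05 and the highest at 0.91.

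H3 genes had too few counts for the test. Hist1h3e had 8, 10 and 10 counts in WT and 9, 4 and 5 in miR-181a/b-1-/- samples, and Hist1h3i had 4, 7 and 7 against 1, 3 and 7. Hist1h2ai, the second most counted H2A gene, had 3, 7 and 4 against 4, 7 and 5. In none of these 3 genes were the groups apart.

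Over all 55 members with a count, 32 had a lower mean level in miR-181a/b-1-/- samples and 23 a higher one. The lower share, 58.2%, stands beside 46.9% of the 16588 genes with a count. In 5 members all miR-181a/b-1-/- libraries were below all WT libraries, where 2.86% of genes with a count behaved so, and in 0 members they were above, where 2.95% did. Sparse genes cannot separate the groups as readily as counted ones. Among the 3704 genes with 5 counts in 2 libraries the share below was 4.86%, and 4 of the 22 members with such counts were below, but 3 of the 4 had reached the filter in WT alone. The 5 genes, named after their values were seen, were Hist2h2ac and Hist1h2ae of H2A, Hist2h3b and Hist1h3f of H3, and Hist1h4j of H4. Hist1h2ae had 8, 5 and 8 counts in WT and 1, 2 and 3 in miR-181a/b-1-/- samples, a log2 fold change of -1.67 ± 0.69 (SE) with an unadjusted p of 0.0167 and an adjusted p of 0.875 by edgeR under the looser filter. It entered that fit through its WT counts alone, as did Hist1h3f with 5, 8 and 6 counts against 1, 4 and 2 and Hist2h3b with 6, 6 and 6 against 3, 3 and 4, so these genes had to be lower in the other group to some degree. Hist1h4j had 3, 4 and 5 against 0, 0 and 2. With no filter, an unadjusted edgeR p under 0.05 was reached by 4 of the 55 members on the lower side (Hist2h2ac, Hist1h2ae, Hist1h4j and Hist1h2bl, named after their values were seen) and by 0 on the higher side, against 1.29% and 1.37% of all 16588 genes with a count. Hist1h2bl had 1, 3 and 6 counts in WT and 0, 1 and 1 in miR-181a/b-1-/- samples. The adjusted p of all 4 was 0.734 in that fit. No adjusted p of a histone gene was under 0.05 in any fit that was run.

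Most histone fragments came from the clusters on chromosome 13. The 31 members between 23531050 and 23934851 took 1377 counts (76.2%), and the 23 members between 21715763 and 22043676 took 233 (12.9%). The 10 members on chromosome 3, between 96219865 and 96270132, took 155 (8.58%), of which 102 were in WT and 53 in miR-181a/b-1-/- libraries. Per 100000 gene counts the chromosome 3 cluster was at 18.5, 15.6 and 10.7 in WT and 8.91, 7.18 and 7.80 in miR-181a/b-1-/- libraries, and the groups did not overlap. Without Hist2h2ac the other 9 genes of this cluster were at 7.66, 8.02 and 6.98 in WT and 5.35, 4.61 and 4.87 in miR-181a/b-1-/- libraries, again apart, on 52 and 33 counts. The chromosome 13 cluster with most counts was at 110.4, 100.6 and 105.1 against 126.0, 108.7 and 73.4, and overlapped. The chromosome 3 cluster was looked at because it holds Hist2h2ac and was not tested.

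H2A and H2B genes often lie head to head and share a promoter region. There were 12 such pairs, with 175 to 305 bases between the starts of the annotated genes. Counts of the partners were far apart in some pairs and close in others. Hist1h2bg had 112 counts and its neighbour Hist1h2ae 27, while Hist2h2ac had 70 and its neighbour Hist2h2be 9, and Hist1h2bc had 24 and its neighbour Hist1h2ac 17. The values are not adjusted for unique sequence, and no pair was tested. H2B was the higher in 5 pairs and H2A in 4, and both partners had 0 counts in the remaining 3.

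Genes that act with histones in S phase, or that supply histones outside it, were counted for comparison. The S phase list (30 genes of DNA replication and nucleotide supply, 27 with a count, 0 with enough counts for the test) was at 25.1 ± 1.04 per 100000 gene counts in WT and 25.5 ± 8.50 in deficient samples (SD, n = 3), overlapping. The miR-181a/b-1-/- libraries, at 35.1, 22.6 and 18.8, lay on both sides of the WT libraries, at 23.9, 25.8 and 25.4. The log2 ratio of 0.02 was -0.28 when the first miR-181a/b-1-/- library was left out, -0.01 when the first WT library was, and 0.20 when the third miR-181a/b-1-/- library was. Its most counted genes were the helicase subunit genes Mcm6 (37 counts) and Mcm7 (28 counts) and the clamp loader gene Rfc1 (35 counts). The list for histone mRNA processing (12 genes, 11 with a count, 0 tested) was at 13.5 ± 1.70 and 12.0 ± 1.20. It was led by Casp8ap2 (32 counts), whose product acts at the histone locus bodies of the nucleus, and by Cpsf2, Cpsf3 and Eri1 (24 counts each), which encode cleavage factor subunits and a stem-loop exonuclease. Slbp itself had 8 counts.

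Variant histone genes, which are expressed outside S phase too, numbered 11, of which 10 had a count and 2 were tested. They were at 28.9 ± 5.07 in WT and 24.0 ± 6.68 in miR-181a/b-1-/- samples (SD, n = 3), overlapping. H2afy, which encodes macroH2A, had 20, 26 and 21 counts against 13, 18 and 11 with a log2 fold change of -0.58 ± 0.35 (SE), and H3f3b, a gene for H3.3, had 15, 17 and 15 against 12, 11 and 8 with -0.52 ± 0.37 (SE). The adjusted p by edgeR was 0.980 and 0.986. H2afz had 42 counts in all, 3, 11 and 6 in WT and 6, 7 and 9 in miR-181a/b-1-/- samples, and was not tested.

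The G2 and mitosis list (20 genes, 17 with a count, 1 tested) was at 29.4 ± 3.39 in WT and 22.6 ± 6.20 in miR-181a/b-1-/- samples (SD, n = 3). The groups overlapped per gene count and were apart per count on nuclear protein-coding genes, as for the histone genes. Tubb5, a tubulin gene, made up 229 of its 349 counts and had a log2 fold change of -0.35 ± 0.29 (SE, adjusted edgeR p 0.986). Top2a, which untangles DNA before mitosis, had 9, 9 and 10 counts in WT and 5, 4 and 2 in miR-181a/b-1-/- samples. Mki67 and Hmgb2 had 23 counts each. Those of Mki67 were 3, 4 and 8 in WT against 4, 1 and 3, and those of Hmgb2 were 4, 4 and 2 in WT against 5, 3 and 5.

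**Figure D5:**
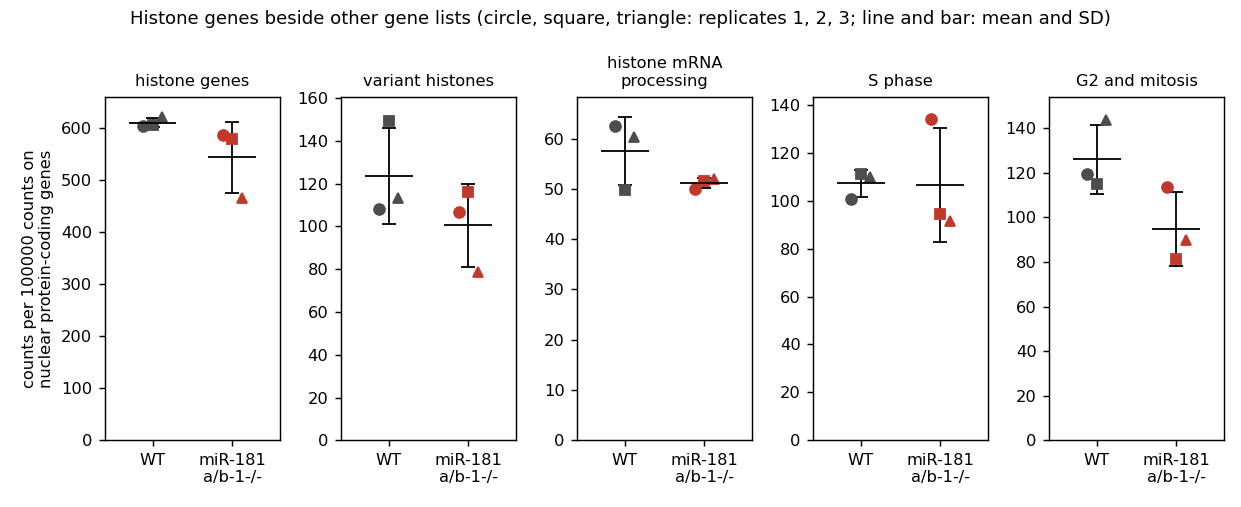
Counts per 100000 counts on nuclear protein-coding genes in each library for the histone genes and 4 other lists, with points for replicates 1 (circle), 2 (square) and 3 (triangle), a line at the mean and a bar for the SD (n = 3), on axes that start at 0. The genotypes are apart for the histone genes and, with the nearest libraries almost equal, for the G2 and mitosis list under this denominator, and overlap in the other 3 lists.

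The label of the cells was checked against marker genes. All 10 Treg markers had counts, 9 were tested and 0 were called, and Foxp3, the defining Treg transcription factor, had 149. The marker that was not tested, Ctla4, had only 1 count, in WT replicate 3. Of 7 markers of double-positive thymocytes, the main cell type of the thymus, 5 had counts, 28 in all, with 0.411 to 2.67 per 100000 gene counts in WT and 2.60 to 3.08 in miR-181a/b-1-/- libraries. The most counted were Cd8b1 (4 counts in WT and 6 in miR-181a/b-1-/- libraries), Arpp21 (3 and 6) and Dntt (2 and 2). Rag2 and Ptcra were at 0 and Rag1 had 2 counts. The part of double-positive thymocytes in the histone values was not tested. B cell markers (3 of 6 genes) had 9 counts, 2 in WT and 7 in miR-181a/b-1-/- libraries, myeloid markers (2 of 6 genes) had 4, all in miR-181a/b-1-/- replicate 2 and 0 in WT, and erythroid markers had 0. Of the deleted genes, Mir181a-1 had 1 count in a WT library and Mir181b-1 had 0 in all 6, too few to check the genotype.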

How the data were processed

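Per the study's methods and labels, small RNA libraries (SMARTer smRNA-Seq Kit) were trimmed with Flexbar, ribosomal RNA reads were removed with Bowtie2, and the rest was aligned with STAR (build GRCm38.p6) and counted with HTSeq. The authors deposited unnormalized counts per gene. Strand setting and annotation release are not given in the sources used here. Of 54547 identifiers, 51550 matched GENCODE vM21 with version and 53706 without. All 67 members matched with version. Records given to no gene (75.7% to 80.3% of a library) stayed out of totals. A deposited miRNA table of the authors' own comparison (fold changes, p-values) was not used.

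All genes that reached 10 counts in 3 or more libraries were fitted with edgeR 4.0.16 (R 4.3.3; TMM, quasi-likelihood test, Benjamini-Hochberg adjustment over all genes, no block), and standard errors were derived from the F statistic. DESeq2 1.42.0 was an alternative. Pooled values are counts per 100000 gene counts. Wilson intervals (SciPy 1.17.1, Python 3.11.15) and zero limits cover counting error only, since PCR reads are not independent molecules. Sequences, exons and coordinates are from GENCODE vM21 (GRCm38). The members, gene lists and tests were chosen with earlier results of these data known. Genes were named if tested, among the 2 most counted of their type, testis-specific, or among the 3 most counted of another list. Outside this rule, chosen after values were seen, were genes given for their sequence, overlap or promoter pairing (such as Hist2h2aa1, Hist2h2aa2, Hist1h2bc, Hist1h2ac, Hist2h2be and the genes outside the family with the stem-loop), markers at or near 0, Slbp, and those so described in the text. One marker gene is not reported here. The fit was tested on simulated data.

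Alternatives were DESeq2, no filter, 5 counts in 2 libraries, no TMM factor, protein-coding genes alone, the replicate number as a block, each library left out, an unadjusted p, another denominator and sums without the leading gene. Fits of Hist2h2ac and Hist1h2ae under the looser filter with a library left out, a block or DESeq2, and H2A and the chromosome 3 cluster without Hist2h2ac, and libraries left out of the other lists and of the other denominator, were added after seeing the data. The sources call the 3 samples of a genotype biological replicates. Replicates differed beyond sampling noise, with chi-square over genes 2.62 to 7.26 per degree of freedom.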

Additional observations from a re-analysis of the deposited data

How the results depend on the processing

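Under all 13 alternatives, with the unadjusted p applied only to genes with 10 counts in 3 libraries, 0 histone genes passed the threshold. Without each library in turn the log2 ratio ranged from -0.29 to 0.03 for all members, from -0.03 to 0.45 for H1, from -0.93 to -0.53 for H2A, from -0.38 to -0.09 for H2B, from -0.51 to -0.16 for H3 and from -0.25 to 0.05 for H4. With a library left out, the log2 ratio stayed below 0 for histone mRNA processing (-0.26 to -0.09), variant histones (-0.40 to -0.06) and G2 and mitosis (-0.63 to -0.26), and for H2A without Hist2h2ac (-0.67 to -0.33). The sign for all members and for H4 turned without miR-181a/b-1-/- replicate 3, and that for H1 without miR-181a/b-1-/- replicate 1. Of 96 refitted log2 fold changes of the 8 tested genes, 88 kept their sign. The other 8 came from leaving out a library, which moved the log2 fold change of Hist1h2be between -0.25 and 0.24, of Hist1h1e between -0.16 and 0.48, of Hist1h1d between -0.52 and 0.25, of Hist1h2bg between -0.039 and 0.16 and of Hist1h4h between -0.091 and 0.13. Hist1h4d, Hist1h1c and Hist1h4c kept their sign. Hist1h4d ranged from -0.46 (without miR-181a/b-1-/- replicate 2) to -0.05 (without replicate 3). Hist1h1c ranged from 0.11 (without miR-181a/b-1-/- replicate 1) to 0.47 (without replicate 3). Hist1h4c ranged from 0.06 (without WT replicate 1) to 0.20 (without miR-181a/b-1-/- replicate 3). Leaving out a library leaves fewer samples, and the cause was not tested further. Whether the replicate numbers pair the samples was not settled. Same-numbered libraries of the 2 genotypes deviated together with r of 0.0806 to 0.223, and differently numbered ones with r of -0.219 to 0.0526. Each library correlated best with its own number. With the replicate block 0 histone genes and 9 of 1391 genes were called. Hist2h2ac kept a log2 fold change of -1.55 to -0.87 and an adjusted p of at least 0.198 over its 9 alternatives (DESeq2 unadjusted p 0.0357), and Hist1h2ae one of -1.87 to -1.45 and at least 0.734 (DESeq2 unadjusted p 0.0599). The unadjusted edgeR p of Hist1h2ae rose to 0.0598 without WT replicate 1 and 0.0612 without WT replicate 3. Most members had too few counts, as 8 of 67 entered the test, and the parts of depth and of shared sequence in this were not tested.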
